A study of Danio rerio with 4 samples.

Results

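Genes that mark differentiated neurons were followed in whole zebrafish embryos, glucose-treated or control. The set was defined as every probe set of an Affymetrix zebrafish array whose single gene symbol in the platform annotation was elavl3, elavl4, snap25a, snap25b, stmn1b, gap43, sncb, tubb5, stxbp1a or vamp2. It comprised 14 probe sets for 8 of the 10 genes, among 15617 probe sets on the array and 8793 genes named there. No probe set carried stxbp1a or vamp2 as its single symbol, so these 2 genes are not analysed here. elavl3 was represented by 4 probe sets, stmn1b, sncb and tubb5 by 2 each, and the other 4 genes by 1 each.

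The series concerns glucose metabolism during the induction of blood stem cells. Embryos grown from 12 to 36 hours post fertilisation (hpf) in E3, a buffered salt solution for fish embryos, with 1% glucose added were compared with control embryos. Both groups were collected at 36 hpf, and each had 2 biological replicates with 1 array per replicate. The labels give no strain, genotype or clutch, and state the same glucose treatment protocol for all 4 samples, so the groups were taken from the sample titles. Nothing states that replicates were separate clutches, so p-values cannot be said to measure the spread between clutches.

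Newborn neurons leave the cell cycle, switch on RNA-binding proteins of the Elav family, build axons with the help of tubulins, stathmins and growth cone proteins, and assemble the machinery that releases transmitter. In that machinery SNAP-25 on the plasma membrane pairs with syntaxin and with the vesicle protein VAMP to fuse vesicles. elavl3, also called HuC, is the standard marker of postmitotic neurons in zebrafish embryos, in which the first neuron circuits of the hindbrain and spinal cord are active at the stage studied.

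The values were intensities on a linear scale, 1 per probe set and array. All 14 neuron probe sets read above 117.7, the brightest of 17 tag probe sets that have no target in fish, on all 4 arrays, with intensities between 170.4 and 6281, so the defining markers of neurons were present in every sample. Median array intensities lay between 170.9 and 175.2. All 14 also passed the filter for testing, a log2 intensity of at least 5 on at least 2 arrays. The 3' to 5' signal ratio of actin, a sign of RNA integrity, was 2.49 and 2.14 on the glucose arrays, against 2.36 and 2.24 on the control arrays, and that of Gapdh was 1.66 and 1.63, against 1.45 and 1.78.

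All 14 neuron probe sets had a lower mean log2 intensity in glucose-treated than in control embryos, but most of the differences were small and 12 did not pass the test. The 2 that passed were the dimmer probe sets of stmn1b and tubb5, and the brighter probe set of each of those genes did not pass. The median log2 difference, glucose minus control, was -0.21 over the 14 probe sets, or 86.3% of the control level, and 0.00148 over all 13628 probe sets tested. Of all tested probe sets 49.8% had a lower mean in glucose. Glucose was compared with control by limma with an intensity trend, which lets the variance follow brightness. limma draws the variance of each probe set towards that of probe sets of like brightness. Its p-values, standard errors and intervals thus do not rest on the replicates of that probe set alone. A probe set is said to fall or rise only at a Benjamini-Hochberg adjusted p under 0.10 over all 13628. That threshold was passed downwards by 2 of the 14 neuron probe sets, and by 0.712% of all probe sets (97), with another 1.29% (176) passing upwards. limma without the trend called 0 of all probe sets, and its smallest adjusted p among the 14 was 0.534.

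**Figure D1:**
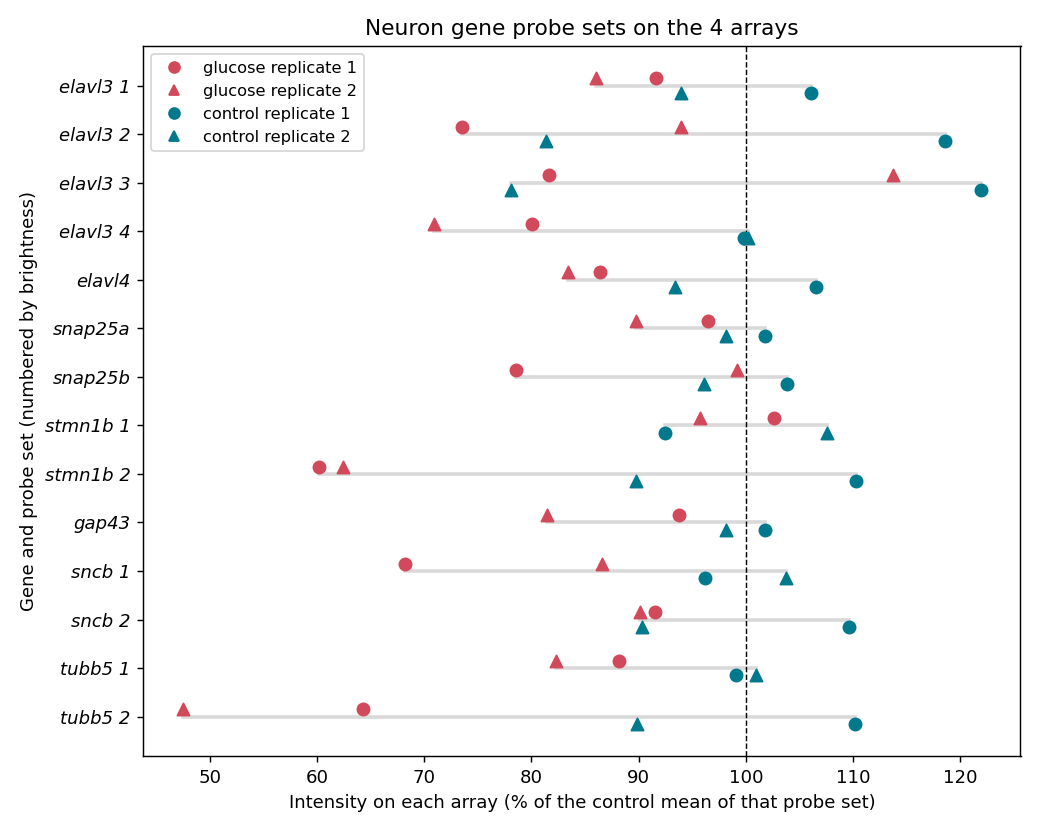
Intensity of the 14 neuron probe sets on each of the 2 glucose arrays (red) and 2 control arrays (blue), on the x axis, as a percentage of the control mean of the same probe set; rows are genes, with probe sets of 1 gene numbered from the brightest, circles are replicate 1 and triangles replicate 2, and the grey line spans the 4 arrays. In 9 rows both red points lie left of both blue points, and the second probe sets of stmn1b and tubb5 lie farthest left.

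The Elav-family RNA-binding proteins bind and stabilise transcripts in neurons. Probe sets of 1 gene are numbered here from the brightest. Probe set 1 of elavl3 read 4676 and 4389 in glucose-treated embryos, against 5415 and 4793 in control embryos. The groups did not overlap, but the 2 control arrays were farther apart (0.18 log2 units) than the group means (0.17). The log2 difference was -0.17 with a standard error of 0.11 and a 95% interval from -0.40 to 0.06 (limma, adjusted p = 0.601).

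Probe set 2 of elavl3 read 765.7 and 978.1 in glucose-treated embryos, against 1235 and 847 in control embryos, and the groups overlapped. Probe set 3 read 604.9 and 842.7 in glucose-treated embryos, against 903.5 and 578.8 in control embryos, and again overlapped. On both of these probe sets, whose identifiers differ only in the last part, glucose replicate 2 lay above glucose replicate 1 and control replicate 1 above control replicate 2. Their log2 differences of -0.24 and -0.02 depended on control replicate 1, without which they were 0.03 and 0.30. Probe set 3 also turned to 0.22 without glucose replicate 1. Without control replicate 2, probe set 2 differed by -0.51.

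Probe set 4 of elavl3 was the dimmest of the 14 neuron probe sets by mean log2 intensity. It read 192.4 and 170.4 in glucose-treated embryos, against 239.9 and 240.8 in control embryos. Both glucose arrays lay below both control arrays, with a log2 difference of -0.41 and an interval from -0.83 to 0.01 that just reached 0 (limma, adjusted p = 0.452). elavl4, also called HuD and expressed in subsets of postmitotic neurons, read 723.8 and 698.5 in glucose-treated embryos, against 892.6 and 782.8 in control embryos. Its groups did not overlap either, and the log2 difference of -0.23, larger than both replicate gaps, did not pass (interval from -0.54 to 0.07; limma, adjusted p = 0.579).

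The next genes encode proteins of the axon cytoskeleton and growth cone. stmn1b encodes a stathmin, which binds tubulin and destabilises microtubules. Its probe set 2 read 402.7 and 417.9 in glucose-treated embryos, against 737.8 and 600.8 in control embryos. Both glucose arrays lay well below the lower control array. The probe set fell by 0.70 on the log2 scale, to 61.6% of the control level, with a standard error of 0.16 and an interval from -1.04 to -0.36 (limma, adjusted p = 0.0391). The call was lost without control replicate 1 (-0.55, adjusted p = 0.102), without glucose replicate 1 (-0.67, adjusted p = 0.15) and without glucose replicate 2 (-0.73, adjusted p = 0.118), with the same direction each time. It was also lost in limma without the intensity trend (adjusted p = 0.534).

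Probe set 1 of stmn1b read 3096 and 2890 in glucose-treated embryos, against 2790 and 3245 in control embryos. Here the glucose arrays lay between the control arrays, and the log2 difference was -0.00844 with an interval from -0.26 to 0.24 (limma, adjusted p = 0.99). The interval did not reach the -0.70 of probe set 2.

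tubb5 encodes a beta tubulin, a building block of microtubules. Its probe set 2 read 362.3 and 268 in glucose-treated embryos, against 621 and 506.3 in control embryos. This was the largest difference among the 14 neuron probe sets, and the groups were well apart. The probe set fell by 0.85 on the log2 scale, to 55.6% of the control level, with a standard error of 0.18 and an interval from -1.24 to -0.46 (limma, adjusted p = 0.0274). The call was lost without glucose replicate 2 (-0.63, adjusted p = 0.289) and in limma without the trend (adjusted p = 0.537), and it held with each of the other arrays left out.

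Probe set 1 of tubb5 read 5489 and 5123 in glucose-treated embryos, against 6167 and 6281 in control embryos. Both glucose arrays lay below both control arrays, and the difference of -0.23 was larger than the gap between replicates in either group, 0.10 in glucose and 0.03 in control. The interval from -0.45 to -0.01 excluded 0, but the difference did not pass over all probe sets (limma, adjusted p = 0.394). Tubulins form a family of near-identical genes, so which copies these probe sets measured is uncertain.

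gap43 encodes a growth cone protein of extending axons. It read 1823 and 1585 in glucose-treated embryos, against 1980 and 1909 in control embryos. The groups did not overlap, but the 2 glucose arrays were 0.20 log2 units apart, more than the difference of -0.19 (interval from -0.46 to 0.07; limma, adjusted p = 0.602).

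**Figure D2:**
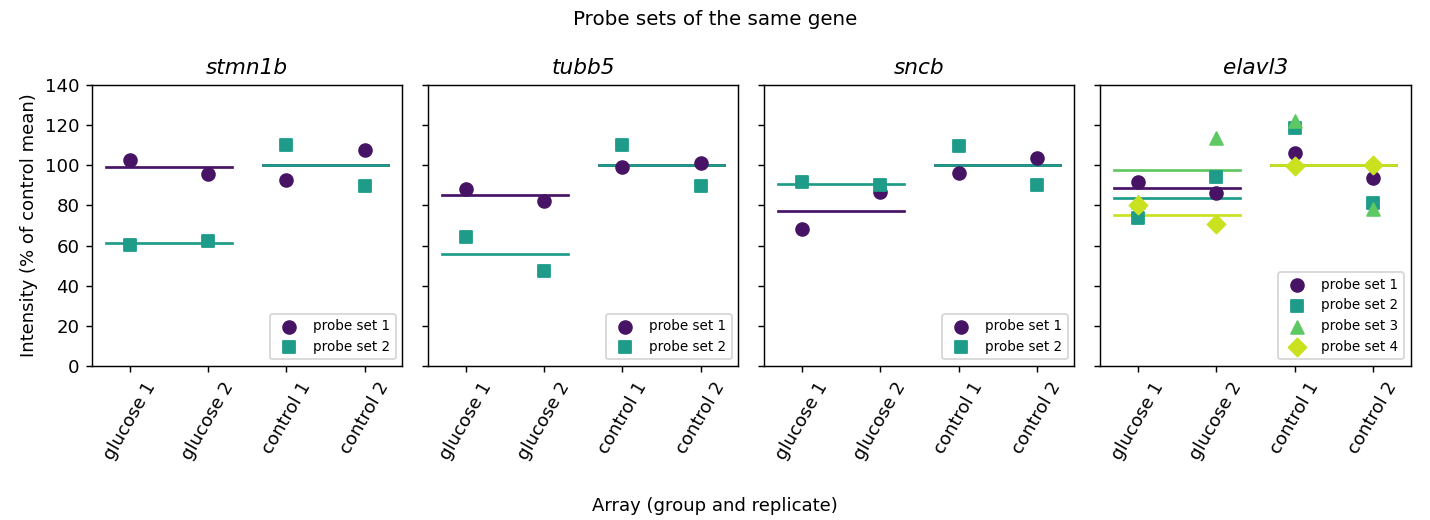
Intensity as a percentage of the control mean (y axis, from 0) on each array (x axis) for the 4 genes with more than 1 probe set; each colour and symbol is 1 probe set, numbered from the brightest, and horizontal lines are group means. For stmn1b and tubb5 probe set 2 lies far below probe set 1 on both glucose arrays, while for sncb probe set 1 is the lower.

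Among the genes of the presynaptic terminal, snap25a, snap25b and sncb, 0 probe sets passed the test by limma with the trend, against 2.0% of all tested probe sets. With so few probe sets, 0 passing is near that share and does not set these genes apart. limma without the trend also called 0, as it did over all probe sets. An unadjusted p under 0.05 with glucose lower was reached by 1, for sncb, against 5.26% of all. snap25a and snap25b are a pair of duplicated genes that both encode SNAP-25. snap25a read 2312 and 2152 in glucose-treated embryos, against 2440 and 2353 in control embryos. Its groups did not overlap, by a narrow margin, and the log2 difference was -0.10 with an interval from -0.35 to 0.14 (limma, adjusted p = 0.802). snap25b read 354 and 447 in glucose-treated embryos, against 467.9 and 433.1 in control embryos. Only glucose replicate 1 was low, so the groups overlapped, and the difference of -0.18 (interval from -0.54 to 0.18; adjusted p = 0.758) was -0.01 without that array.

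sncb encodes beta-synuclein, a small protein of presynaptic terminals. Its probe set 1 read 1869 and 2372 in glucose-treated embryos, against 2636 and 2844 in control embryos. The groups did not overlap, and the difference of -0.38 was slightly larger than the gap between the glucose arrays, 0.34. The interval from -0.65 to -0.11 excluded 0, but the probe set did not pass over all probe sets (limma, adjusted p = 0.23). Without control replicate 1 the difference was -0.43, and without glucose replicate 1 it was -0.21. Over all alternatives it ranged from -0.55 to -0.21.

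Probe set 2 of sncb read 1697 and 1670 in glucose-treated embryos, against 2032 and 1674 in control embryos. Control replicate 2 lay between the glucose arrays, and the difference of -0.13 (interval from -0.40 to 0.14; adjusted p = 0.763) rested on control replicate 1, without which it was 0.00777.

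**Figure D3:**
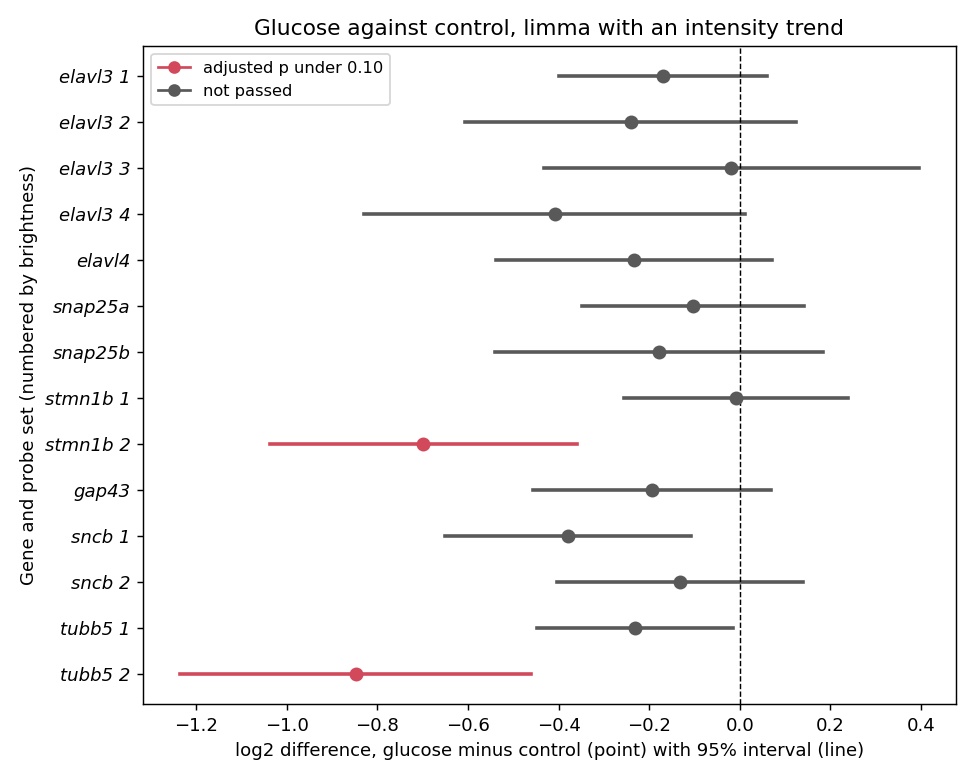
Log2 difference, glucose minus control (x axis, points), with its 95% interval (lines) from limma with an intensity trend, for the 14 neuron probe sets (rows). Red marks the 2 probe sets with an adjusted p under 0.10, the second probe sets of stmn1b and tubb5; the intervals of sncb probe set 1 and tubb5 probe set 1 also lie below 0 but did not pass after adjustment over all probe sets.

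To set probe sets of the same gene beside each other within an array, the log2 ratio of the dimmer to the brightest probe set was taken on each array. For stmn1b this ratio was -2.94 and -2.79 in glucose-treated embryos, against -1.92 and -2.43 in control embryos, a mean difference of -0.69. For tubb5 it was -3.92 and -4.26 in glucose-treated embryos, against -3.31 and -3.63 in control embryos, a mean difference of -0.62. In both genes the groups did not overlap. The exact two-sided permutation test gave p = 0.333, the smallest that 2 arrays against 2 allow. It could therefore not support a difference in any gene, nor a contrast between genes. For probe set 4 of elavl3 the ratio was also lower in both glucose arrays (mean difference -0.24), with the same p. For sncb and for probe sets 2 and 3 of elavl3 the ratios overlapped between the groups (exact permutation p = 0.667 each). Brightness moved with these differences in stmn1b and tubb5, as the probe sets that fell were the dimmer of each gene. They still read above the median intensity of every array. The part of brightness was not tested. Among all tested probe sets the SD within groups was 0.183 log2 units at a mean log2 from 8 to 10, where both calls lie. It was 0.141 from 10 to 12, where probe set 1 of stmn1b lies, and 0.103 from 12 to 17, where probe set 1 of tubb5 lies.

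Across the 14 neuron probe sets, control replicate 1 was the highest of the 4 arrays for 10 and control replicate 2 for the other 4. A glucose array was the lowest for 12 probe sets, 4 times replicate 1 and 8 times replicate 2. Groups did not overlap, with glucose lower, in 9 of the 14 neuron probe sets, against 20.3% of all tested probe sets. The difference was larger than the gap between replicates of both groups in 6 of 14, against 28.5% of all. An unadjusted limma p under 0.05 with glucose lower was reached by 4 of 14, against 5.26% of all; these were both probe sets of tubb5 and 1 each of stmn1b and sncb. The 14 probe sets belong to 8 genes and share the same 4 RNA samples, so they are not independent of each other.

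The size of the shift depended on single arrays. The median over the 14 probe sets was -0.13 without control replicate 1, with 11 of 14 lower, and -0.30 without control replicate 2, with 13 of 14 lower. Without glucose replicate 1 it was -0.21, and without glucose replicate 2 it was -0.23. Each of these 4 fits keeps only 1 array in a group, and the number of calls over all probe sets also moved between them. Counts of calls in such fits, here and for the lists below, are therefore no result about the genes. The summed intensity of the 14 probe sets, which weighs the brightest most, was 24368 and 24004 on the glucose arrays, against 28558 and 27089 on the control arrays. Over all tested probe sets the sums overlapped, with 14251108 and 14076200 on the glucose arrays, against 14325251 and 13824187 on the control arrays. In RNA of whole embryos, fewer neurons and less of a transcript per neuron cannot be told apart.

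A wider look at neurons used 6 further lists with 208 genes, of which 101 were on the array. Of their 125 tested probe sets, 78 were lower and 47 higher in glucose, with a median log2 difference of -0.09. In these lists 2 probe sets fell and 1 rose, or 3 of 125, against 2.0% of all tested probe sets. With 1 array left out at a time the median lay between -0.10 (without control replicate 1) and -0.07 (without glucose replicate 1).

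Of the 6 lists, neuronal RNA-binding and splicing genes had the largest share of lower probe sets. They include elavl2, a relative of elavl3, whose probe set was dim, with a mean log2 intensity of 6.13. It did not pass (log2 difference -0.40, limma adjusted p = 0.743). Of the 9 probe sets for 6 genes in this list 8 were lower, the median was -0.28, and 0 passed by limma with or without the trend. An unadjusted p under 0.05 was reached by 2, both with glucose lower, against 5.26% of all tested probe sets. Without control replicate 2, 1 fell. The splicing regulator nova2 read 192.3 and 198.1 in glucose-treated embryos on its second brightest probe set, against 314.1 and 272.7 in control embryos, without overlap (log2 difference -0.58, limma adjusted p = 0.201). Its other probe sets differed by -0.32 and -0.06. The splicing regulator rbfox1 read 755.4 and 711.2 in glucose-treated embryos, against 969.8 and 858.7 in control embryos, also without overlap (-0.32, limma adjusted p = 0.401). Both genes were named for their small p-values. In the whole list 7 of 9 probe sets were lower without overlap, against 20.3% of all tested probe sets.

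Of 26 probe sets of synaptic vesicle and release genes 12 were lower and 14 higher, and 0 passed by limma with or without the trend. An unadjusted p under 0.05 was reached by 1, with glucose lower, against 5.26% of all tested probe sets. The median of 0.0098 had no stable sign: it was between -0.05 and -0.00742 in the 4 fits that leave out 1 array and -0.012 with quantile normalization. The vesicle protein gene syngr1a read 44.9 and 84.8 in glucose-treated embryos, against 116.9 and 111.7 in control embryos, all below the brightest tag probe set (log2 difference -0.89, limma adjusted p = 0.33). For the synaptophysin gene sypb, 1 of 3 probe sets differed by -0.29 (adjusted p = 0.602) and the others by 0.06 and 0.02.

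Of 22 probe sets for neuronal cytoskeleton and growth cone genes 13 were lower, with a median of -0.05, and 1 fell. This was tuba2, an alpha tubulin, at 2040 and 1924 in glucose-treated embryos, against 2879 and 2916 in control embryos. It fell by 0.55 on the log2 scale (limma, adjusted p = 0.022), and the call was lost without glucose replicate 2 (-0.51, adjusted p = 0.243). Its 2 other probe sets differed by -0.26 and -0.59, and neither passed. The one at -0.59 was near the floor of the filter, with a mean log2 intensity of 4.95. As with tubb5, the tubulin copy measured is uncertain.

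The list of other neuronal proteins had 28 of 37 probe sets lower, with a median of -0.11. In it uchl1, the ubiquitin hydrolase abundant in neurons, fell by 0.64 on the log2 scale, with 394 and 446.2 in glucose-treated embryos, against 661.4 and 643.8 in control embryos (limma, adjusted p = 0.0555). The call was lost without glucose replicate 1 (adjusted p = 0.347) and without glucose replicate 2 (adjusted p = 0.118). The sodium pump subunit gene atp1b3a rose by 0.82 on 1 probe set, with 519.8 and 602.6 in glucose-treated embryos, against 276.6 and 362.5 in control embryos (adjusted p = 0.027; 0.2 without glucose replicate 2), and differed by 0.09 on the other.

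Axon adhesion and guidance genes had 11 of 19 probe sets lower and a median of -0.09, which turned to 0.0127 without glucose replicate 1. None passed by limma with or without the trend. An unadjusted p under 0.05 was reached by 4, of which 2 were lower and 2 higher, against 1564 of all 13628 in either direction. Their smallest p-values belonged to alcama, an adhesion molecule of axons (log2 difference -0.38 on 1 probe set and -0.18 on the other, limma adjusted p = 0.267), and nrp1a, a semaphorin receptor (0.44, adjusted p = 0.293). Transcription factor genes of differentiated neurons had 6 of 12 lower and a median of 0.00267. None of these passed either, and 2 had an unadjusted p under 0.05, myt1a (-0.46, adjusted p = 0.256) and tlx3b (-1.54, adjusted p = 0.386). Of this list 2 fell without control replicate 1 and 2 without glucose replicate 2. For tlx3b 3 of 4 arrays lay below the brightest tag probe set and the difference rested on glucose replicate 1, without which the difference was 0.10.

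**Figure D4:**
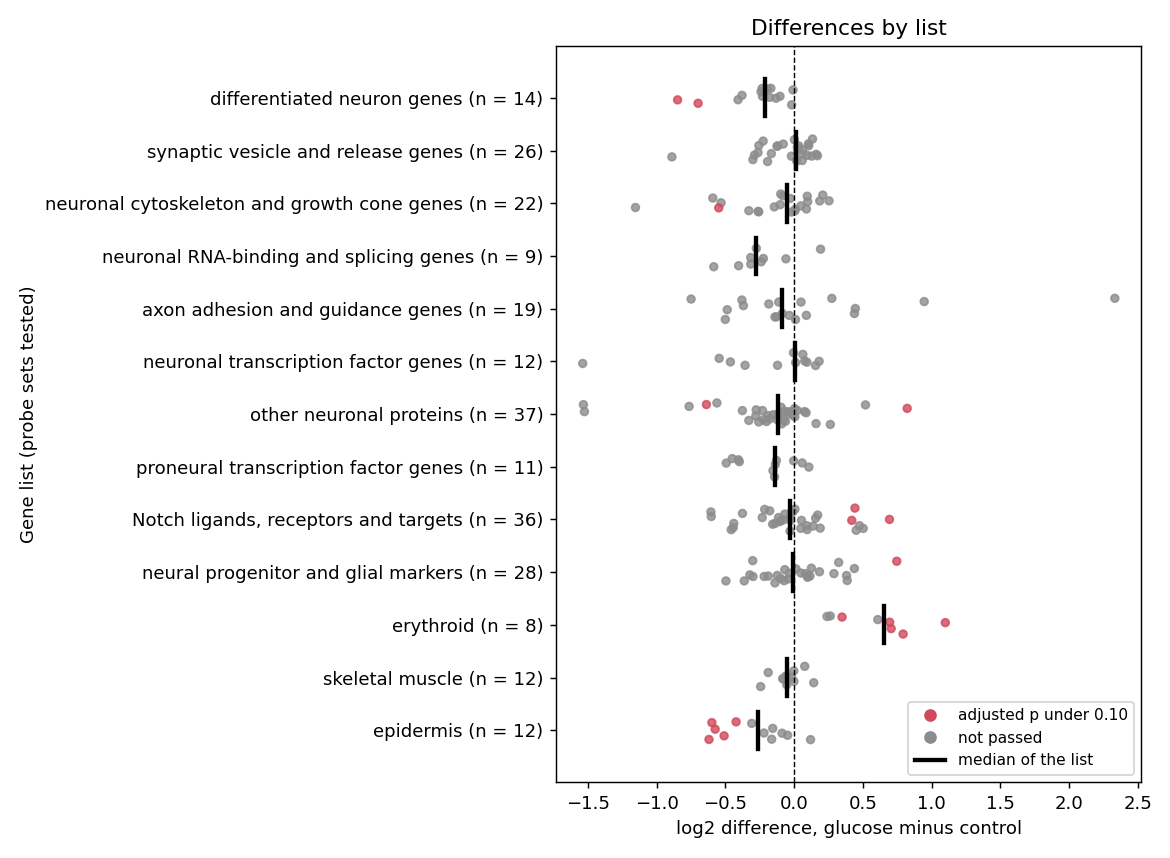
Log2 difference, glucose minus control (x axis), of every tested probe set (points) in the 14 neuron probe sets, in the 6 further neuron lists, and in lists of proneural, Notch, progenitor and other tissue genes (rows, with the number of probe sets); black bars are medians and red points passed at an adjusted p under 0.10. All points of the top row lie at or below -0.00844, and the erythroid row lies wholly above 0.

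Genes that act before neurons differentiate were set beside these values. Of 11 probe sets of proneural transcription factor genes 9 were lower, with a median of -0.14, and 0 passed by limma with or without the trend. An unadjusted p under 0.05 was reached by 3, all with glucose lower, against 5.26% of all tested probe sets. Without control replicate 1, 2 fell, and likewise without control replicate 2. ascl1b, a proneural factor, read 1537 and 1485 in glucose-treated embryos, against 2000 and 2003 in control embryos (log2 difference -0.41, limma adjusted p = 0.143). neurod1, which promotes neuron differentiation, read 478 and 500.9 in glucose-treated embryos, against 633.7 and 749.3 in control embryos (-0.49, adjusted p = 0.177). Neither had overlapping groups, but both were named for having the smallest p-values of the list. In the whole list 4 of 11 probe sets were lower without overlap, against 20.3% of all tested probe sets.

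Of 36 probe sets for Notch ligands, receptors and targets, a pathway that holds progenitors back from becoming neurons, 21 were lower and 15 higher, with a median of -0.03. In this list 3 rose and 0 fell, against 1.29% of all tested probe sets rising. They were the Notch target her4.2 by 0.69 (limma, adjusted p = 0.0453), the target her15.2 by 0.44 (adjusted p = 0.0911) and the ligand dla by 0.42 (adjusted p = 0.0841). her4.2 and her15.2 belong to clusters of near-identical genes, so the copy is uncertain, and the second her4.2 probe set differed by 0.47 and did not pass. Without glucose replicate 2 none of the 3 calls held (adjusted p = 0.46, 0.415 and 0.318, in the same order), and without glucose replicate 1 her15.2 (0.393) and dla (0.466) did not.

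Neural progenitor and glial markers had 14 of 28 probe sets lower and a median of -0.01, and their summed intensity was 39104 and 39869 on the glucose arrays, against 37729 and 39762 on the control arrays. The 1 that rose was the glutamine synthetase gene glula, by 0.75 on the log2 scale, with 3094 and 3337 in glucose-treated embryos, against 1756 and 2091 in control embryos (limma, adjusted p = 0.00356). Without control replicate 2, 3 rose, and without control replicate 1, 1 rose and 1 fell. Markers of 3 other tissues were read as well, and limma without the trend called 0 in each of these lists. With the trend, 1.29% of all tested probe sets rose and 0.712% fell. All 8 erythroid probe sets were higher, 5 of them past the test, and their sum was 119953 and 113991 on the glucose arrays, against 97154 and 91482 on the control arrays. Of 12 epidermal probe sets 11 were lower and 5 fell, with a sum of 89585 and 89104 on the glucose arrays, against 102603 and 95281 on the control arrays. Without glucose replicate 2 these counts were 3 erythroid and 2 epidermal, and without glucose replicate 1 they were 4 and 3. Skeletal muscle markers had 10 of 12 probe sets lower, a median of -0.05 and 0 past the test. An unadjusted p under 0.05 was reached by 1 of them, with glucose lower, against 5.26% of all tested probe sets. The muscle median was 0.05 without control replicate 1, and 3 fell without control replicate 2. The muscle sum overlapped between the groups, with 440949 and 434281 on the glucose arrays, against 480836 and 423605 on the control arrays. The part of these other tissues in the values of the neuron genes was not tested.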

How the data were processed

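Per the labels' protocols, biotin-labelled total RNA of whole embryos (Trizol extracts) was hybridised to the arrays. The authors deposited linear intensities, a single value for each probe set on each array. GCRMA is named, without a version, in the submitters' processing notes, but the deposited intensities have equal means after trimming 2% at each end (500.15 to 500.16), so the method that made them and any background subtraction stay unknown.

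Of 15617 probe sets, 115 controls were left out. Of the other 15502, 10795 carry 1 gene symbol in the platform annotation, 135 several and 4572 none listed. RefSeq (GRCz12tu) was used for names only and matched 10711. The log2 was taken without further scaling, and 1874 probe sets that did not reach 5 on 2 arrays were left out, none of them a neuron probe set. limma 3.58.1 in R 4.3.3 compared the groups with an intensity trend, no covariates and 2 residual degrees of freedom. The variance that limma borrows over all tested probe sets added further degrees of freedom. The number of arrays limits the precision. Code was tested on simulated data. Tables were made in pandas 2.3.3 (Python 3.11.15) and figures in matplotlib 3.10.9.

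The members, lists, thresholds and the trend were chosen with earlier results of these data known. All member probe sets are named, and in each other list every probe set past the threshold or, with none, the 2 of smallest p. In the tissue marker lists no single gene is named; counts, sums and medians are given. Alternatives were leaving out each array, the replicate block, no trend, 2 other filters, quantile normalization, median centring, a threshold of 0.05 and the brightest probe set of each gene.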

Additional observations from a re-analysis of the deposited data

How the results depend on the processing

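Of 140 values of single neuron probe sets under the alternatives, 126 kept their direction and their side of the threshold. This count is no measure of stability. No trend, the replicate block and the 2 other filters cannot change a log2 difference. Of the 14 probe sets, 12 had no call to lose, and the 2 with a call lost it in 6 of their values. Without the intensity trend limma called 0 of all probe sets (1152 with an unadjusted p under 0.05), 0 of the 14 neuron probe sets (2) and 0 of the 6 further neuron lists (9). Leaving out 1 array at a time moved the calls over all probe sets between 147 and 934, against 273 with all 4 arrays, those of the neuron probe sets between 0 and 3, those of the further lists between 2 and 8, and the median of the neuron probe sets between -0.30 and -0.13. No filter gave 174 calls over all probe sets and a threshold of 0.05 gave 161. Directions of named probe sets turned only on leaving out an array: elavl3 probe set 2 ranged from -0.51 to 0.031, elavl3 probe set 3 from -0.34 to 0.30, stmn1b probe set 1 from -0.12 to 0.10, sncb probe set 2 from -0.27 to 0.00777 and tlx3b from -3.18 to 0.10. The cause was not tested. The medians near 0 of the synaptic, transcription factor, Notch, progenitor and muscle lists changed sign on leaving out at least 1 array, and those of the synaptic (-0.012) and transcription factor lists (-0.02) also with quantile normalization, of the transcription factor list with median centring (-0.0064) and of the progenitor list with the stricter filter (0.0132). With no filter and with median centring, her15.2 (adjusted p = 0.106 and 0.11) and dla (0.114 and 0.111) did not pass. Replicate numbers were shared between the groups, but deviations of same-numbered arrays correlated with r = -0.02 over 13628 probe sets, so they were not taken as pairs. The replicate block gave 301 calls over all probe sets, 2 among the neuron probe sets and 4 in the further lists. Quantile normalization and median centring left the median of the neuron probe sets at -0.22 for both. Dim signal limits what can be seen: 21 of the 125 probe sets of the further lists were below the brightest tag probe set on all 4 arrays.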
